A study of Homo sapiens with 12 samples.

Results

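The genes described here are the 9 enzymes of the hexosamine pathway and of O-GlcNAc cycling: GFPT1, GFPT2, GNPNAT1, PGM3, UAP1, NAGK, GNE, OGT and OGA. They were picked by gene symbol from the 63187 rows of the deposited expression table, and all 9 were found. All 9 also passed the filter on low values, which asks for 3 or more of the 12 libraries with a normalized count of 10 or higher, as did 9270 genes in all. NAGK reached a normalized count of 10 in 11 of the 12 libraries and each of the others in all 12.

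RNA-seq was carried out on MDA-MB-231, a human breast adenocarcinoma line with a basal, mesenchymal-like phenotype, kept for 36 h in 1 of 4 media that all held 3% fetal bovine serum. Full medium contained 25 mM glucose and 4 mM glutamine, glucose-only medium 25 mM glucose and no glutamine, glutamine-only medium 4 mM glutamine and no glucose, and deficient medium neither. Before that, all cells had grown in a high-glucose Hanks' salt solution with 10% serum and antibiotics. Each medium had 3 libraries, lettered A, B and C, made from ribosome-depleted total RNA of unmodified cells of the same line, and nothing in the labels says whether they came from separate cultures, so p-values measure the spread between these libraries, which may be technical. Serum brings some sugar and amino acids of its own, so the media without glucose or glutamine are those to which none was added.

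The hexosamine pathway is a side branch of glycolysis. GFPT1 and GFPT2 join fructose 6-phosphate with the amide nitrogen of glutamine, so the first and rate-limiting step draws on both nutrients that the media varied. GNPNAT1 acetylates the product, PGM3 moves its phosphate, and UAP1 makes UDP-GlcNAc, the sugar donor for protein and lipid glycosylation. NAGK returns salvaged N-acetylglucosamine to the pathway, and GNE takes UDP-GlcNAc away towards sialic acid. OGT places single O-GlcNAc sugars on nuclear and cytoplasmic proteins and OGA removes them, and both messages are known to respond to the cell's O-GlcNAc state.

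The start sites of 3 of these genes are printed here: GFPT1, which led in glutamine-only medium, and GNPNAT1 and UAP1, which, like PGM3, led in deficient medium. The 250 bases before each RefSeq start (GRCh38.p14) are given on the coding strand, 5′ to 3′, with GC boxes (GGGCGG or its reverse complement CCGCCC) in capitals. The windows are chr2:69387228-69387477 on the minus strand for GFPT1, chr14:52791608-52791857 on the minus strand for GNPNAT1 and chr1:162561281-162561530 on the plus strand for UAP1, the most upstream of its 3 annotated starts.
GFPT1: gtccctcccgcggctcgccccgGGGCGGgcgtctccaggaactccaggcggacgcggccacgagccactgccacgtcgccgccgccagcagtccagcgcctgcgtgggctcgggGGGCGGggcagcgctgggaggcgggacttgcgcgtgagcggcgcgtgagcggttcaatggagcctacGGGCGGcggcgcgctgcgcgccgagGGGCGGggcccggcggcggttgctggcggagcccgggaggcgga
GNPNAT1: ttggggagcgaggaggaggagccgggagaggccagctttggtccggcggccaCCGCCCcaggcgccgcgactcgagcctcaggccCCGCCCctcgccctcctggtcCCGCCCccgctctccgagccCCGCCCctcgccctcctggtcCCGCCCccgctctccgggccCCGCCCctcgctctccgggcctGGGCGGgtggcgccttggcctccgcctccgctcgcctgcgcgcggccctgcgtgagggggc
UAP1: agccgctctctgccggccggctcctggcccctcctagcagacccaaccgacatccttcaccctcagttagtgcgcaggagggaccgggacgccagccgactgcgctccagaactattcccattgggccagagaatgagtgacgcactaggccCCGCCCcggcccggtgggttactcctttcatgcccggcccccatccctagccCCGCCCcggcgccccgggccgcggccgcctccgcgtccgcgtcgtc
The GFPT1 window held 4 GC boxes at 80% G+C, the GNPNAT1 window 7 boxes at 80.8% and this UAP1 window 2 boxes at 71.2%. The windows at the other 2 UAP1 starts held 4 and 3 boxes, at 77.2% and 76.8% G+C. The 3 UAP1 windows overlap in part, so a box can be counted in more than 1 of them. The 2 windows of PGM3, not printed, held 1 and 2 boxes, at 74% and 68.8% G+C. Whether these boxes bear on the levels was not tested. Of 27305 human promoter windows of the same length, 42.3% held at least 1 GC box, 7.82% at least 4 and 1.18% at least 7, and their median G+C was 58%. All 9 genes matched the RefSeq promoter table, with 14 windows between them, and 12 of the 14 held a GC box. The other 6 motifs were searched on both strands: TGACGTGG (unfolded protein response element, in 0.667% of all windows), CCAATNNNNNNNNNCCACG (endoplasmic reticulum stress element, 0.0806%), TGATGNAAT (ATF4 composite element, 0.916%), CACGTG (E box, 6.49%), TGACGTCA (cyclic AMP response element, 1.77%) and GAANNTTC (heat shock pair, 5.85%, added after values were seen). None of these 6 strings was present in any of the 14 windows, which says only that these letters are not in them.

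Libraries held between 875033 and 1473587 reads assigned to genes, so counting error is a sizeable part of the error for members with few reads, such as NAGK with 38 reads over the 3 deficient libraries. Protein-coding genes took 55.4% ± 3.94 of reads in full medium (SD, n = 3, as for every mean here), 44.4% ± 2.51 in glucose-only, 51.2% ± 3.34 in glutamine-only and 47.3% ± 4.34 in deficient medium. This composition moved with the media. With libraries scaled on nuclear protein-coding genes alone all 81 calls of the 9 enzymes were the same. That scaling moved the median change of all genes against full medium by only 0.02 to 0.05 on the log2 scale. It therefore cannot show how far the calls depend on composition. All values are relative to the other RNA of a library, so less RNA per cell and fewer cells cannot be told apart. When libraries were set to equal totals, the median change of all genes against full medium moved by -0.39 in deficient, -0.21 in glucose-only and -0.12 in glutamine-only medium on the log2 scale, and against deficient medium it moved by 0.17 with glucose and by 0.27 with glutamine. Of the line's 7 markers, VIM ran from 641 to 1047 and SPARC was at 0 in 8 libraries, and the summed level of the 7 was 2790 to 3021 in deficient against 1745 to 1889 in the other media; its part in the results was not tested. All 6 fibroblast, 6 blood and 4 adipocyte markers were below a normalized count of 10 in every library. So were 5 of 7 luminal markers, with KRT19 the highest of the others (63.9 to 164.5), and 2 of 4 endothelial markers. Between libraries of 1 medium the median squared difference over genes was 1.08 to 1.42 times that of counting noise alone, highest for deficient B and C, and 1 batch label covered all 12.

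Deficient medium gave the widest change in the pathway. Of the 9 genes, 4 rose against full medium (GFPT1, GNPNAT1, PGM3 and UAP1), 4 fell (NAGK, GNE, OGT and OGA) and GFPT2 did not pass the test. The 4 that rose belong to the steps that build UDP-GlcNAc, where GFPT2 did not move with them, and the 4 that fell are the salvage kinase, the first enzyme towards sialic acid and both O-GlcNAc enzymes. Over all tested genes, 26.3% rose and 25.5% fell in this comparison, so a count of 4 and 4 among 9 has to be read against a transcriptome that moved widely in both directions. The median change of the 9 was -0.03 on the log2 scale, beside 0.01 for all tested genes. Changes and SE are limma estimates on log2(normalized count + 1) with Benjamini-Hochberg adjustment over the 9270 genes, and the 3 comparisons with full medium share its libraries.

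**Figure D1:**
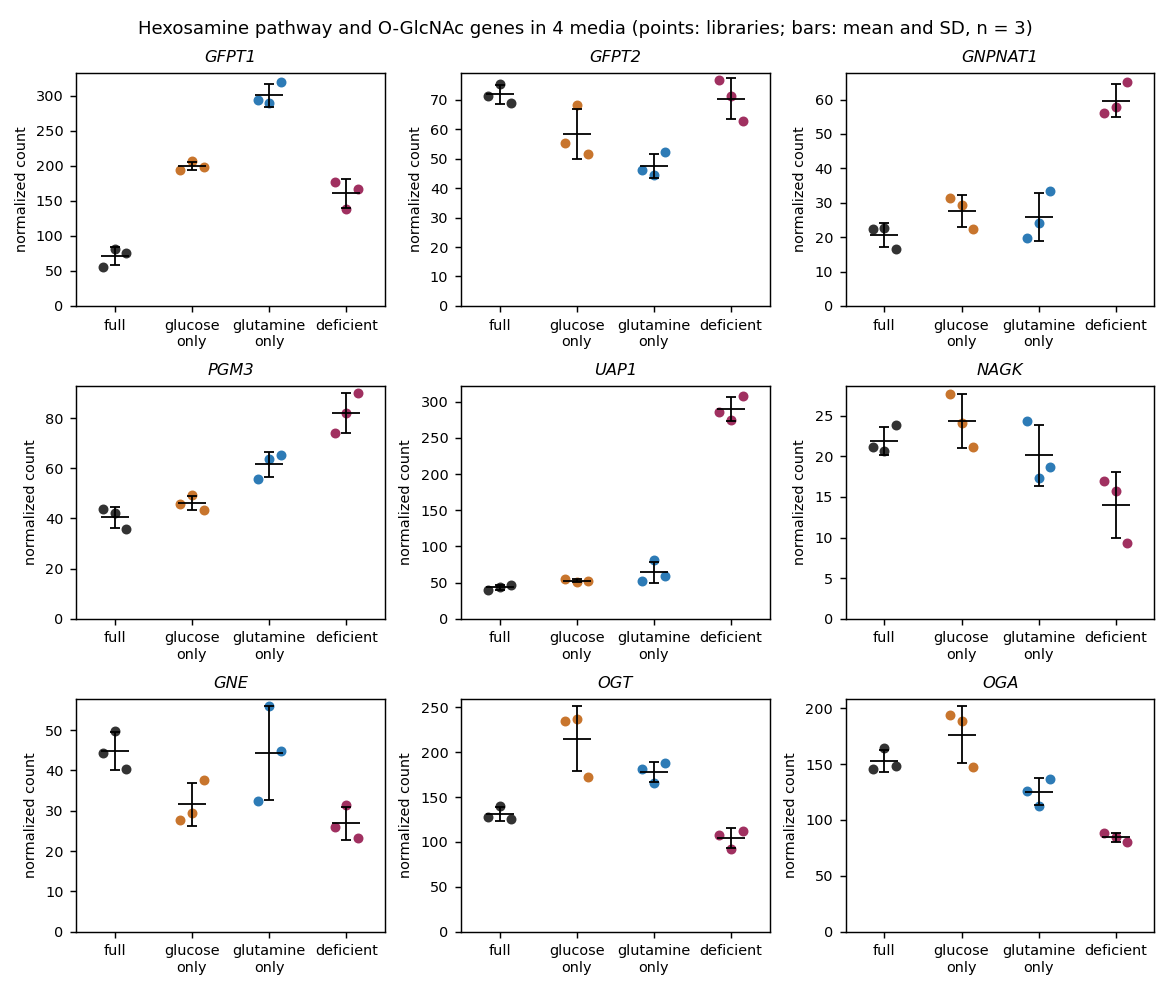
Normalized counts of the 9 genes in each library (points; letters A, B and C are not paired) by medium, with black bars for the mean and SD of 3 libraries; the y axis is linear and starts at 0 in each panel. UAP1 lies between 275 and 308 in deficient medium and at or below 80.9 elsewhere, while GFPT1 is highest in glutamine-only medium, between 289 and 319.

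GFPT1, the glutamine-fructose-6-phosphate transaminase found in most tissues, lies on the minus strand of chromosome 2 (69319780 to 69387227). Its normalized counts were 56.2, 81.8 and 75.2 in full medium and 177, 138 and 167 in deficient medium. In glucose-only medium they were 194, 206 and 199, and in glutamine-only medium 293, 289 and 319. The groups did not overlap: every library of the 3 depleted media was above every full library, and the order from low to high was full, deficient, glucose-only, glutamine-only. Against full medium GFPT1 rose by 2.08 ± 0.12 in glutamine-only (4.23-fold, adjusted p = 1.3e-13), by 1.49 ± 0.12 in glucose-only (2.82-fold, 2.24e-10) and by 1.17 ± 0.12 in deficient medium (2.26-fold, 4.52e-09). It was also higher in glutamine-only than in glucose-only medium, with glucose-only lower by a log2 change of -0.59 ± 0.12 (adjusted p = 0.00124), and higher in glutamine-only than in deficient medium (0.91 ± 0.12, adjusted p = 9.69e-07). The neighbours in that order that stood closest were deficient and glucose-only: 0.32 ± 0.12, adjusted p = 0.0355. That last call was lost in 7 of 24 alternatives, including without glucose-only replicate A (0.0562), B (0.0989) or C (0.0704) and without deficient replicate B (0.192), over a range of adjusted p from 0.000282 to 0.192.

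GFPT2, the second enzyme of the same step, often raised in mesenchymal-like cells, lies on the minus strand of chromosome 5 (180300698 to 180353336). Its counts were 71.4, 75.2 and 68.8 in full medium and 46.0, 44.3 and 52.2 in glutamine-only medium. They were 55.4, 68.1 and 51.7 in glucose-only and 76.8, 71.2 and 62.9 in deficient medium. GFPT2 was thus lowest where GFPT1 was highest, and its full and deficient libraries overlapped. It fell by 0.59 ± 0.14 in glutamine-only against full medium (adjusted p = 0.00307), and its log2 change was -0.30 in glucose-only (adjusted p = 0.133) and -0.03 in deficient medium (adjusted p = 0.862). With equal totals the last of these was called lower (adjusted p = 0.0362, range over the alternatives 0.0362 to 1), and glucose-only as well (0.0233, range 0.0233 to 0.431). Glutamine-only against deficient medium gave -0.55 ± 0.14 (adjusted p = 0.00277), a call lost with equal totals (0.213, range 0.00214 to 0.213).

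Because a ratio of 2 genes in 1 library does not depend on how that library was scaled, GFPT1 was also set against GFPT2 per kilobase of exon. The ratio was 0.424, 0.586 and 0.590 in full medium and 3.44, 3.52 and 3.29 in glutamine-only medium. In glucose-only medium it was 1.89, 1.63 and 2.07, and in deficient medium 1.24, 1.04 and 1.43. GFPT2 was therefore above GFPT1 per kilobase of exon union in every full library, and GFPT1 was above GFPT2 in all 9 others. The side on which full medium falls depends on the lengths taken (8.866 kb for GFPT1 and 4.78 kb for GFPT2). Before division by length the normalized counts in full medium were near equal, at 71.1 ± 13.3 for GFPT1 and 71.8 ± 3.22 for GFPT2. No depleted medium overlapped full medium. The two-sided exact permutation test of each against full medium gave p = 0.1, the smallest that 3 against 3 libraries allow. Over the 12 libraries the log2 levels of the pair had a Pearson r of -0.738, a description that rests on the 4 media as much as on the libraries.

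GNPNAT1, which acetylates glucosamine 6-phosphate, is on the minus strand of chromosome 14 (52775193 to 52791607). It measured 22.5, 22.6 and 16.5 in full medium and 56.0, 58.0 and 65.2 in deficient medium. Its 3 glucose-only libraries lay between 22.3 and 31.3 and the 3 glutamine-only libraries between 19.8 and 33.6. The deficient libraries stood above all others, and the other 3 media overlapped with each other. GNPNAT1 rose by 1.51 ± 0.21 in deficient against full medium (2.84-fold, adjusted p = 9.41e-07), and its changes in glucose-only (0.41, adjusted p = 0.168) and glutamine-only medium (0.30, adjusted p = 0.348) did not pass. Adding either nutrient alone to deficient medium went with a lower level, by -1.09 ± 0.21 for glucose (adjusted p = 0.000137) and -1.21 ± 0.21 for glutamine (adjusted p = 4.7e-05). Of its exon bases, 35.57% overlap an antisense gene, AL139317.3, which was at 0 in all libraries. The labels name a stranded library kit, and how the counting treated strand is not given in the sources used here.

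PGM3, the phosphoacetylglucosamine mutase, is on the minus strand of chromosome 6 (83148705 to 83193900). It measured 43.6, 42.3 and 35.8 in full and 74.2, 82.1 and 90.1 in deficient medium. Glucose-only libraries held 45.8, 49.2 and 43.5, and glutamine-only libraries 55.9, 63.6 and 65.2. Deficient libraries were above all others, glutamine-only libraries came next, and full and glucose-only libraries overlapped. Against full medium PGM3 rose by 1.00 ± 0.15 in deficient (2.00-fold, adjusted p = 1.45e-06) and by 0.59 ± 0.15 in glutamine-only medium (1.51-fold, adjusted p = 0.00332), and it gave 0.19 in glucose-only medium (adjusted p = 0.388). The glutamine-only call was lost with equal totals (0.0506, range 0.00156 to 0.0506). It was lower in glucose-only than in deficient medium (-0.81 ± 0.15, adjusted p = 4.61e-05). Glutamine-only against deficient medium, -0.41 ± 0.15 with an adjusted p of 0.0253, was lost in 7 of 24 alternatives, among them equal totals (0.599) and the fits without glutamine-only replicate A (0.104), deficient replicate B (0.0534) or deficient replicate C (0.109), range 0.0105 to 0.599. DOP1A, on the other strand, shares 14.82% of the exon bases of PGM3 at a mean normalized count of 11.45.

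UAP1, the pyrophosphorylase that makes UDP-GlcNAc, is on the plus strand of chromosome 1 (162561531 to 162601240). Its counts were 39.7, 44.2 and 46.8 in full medium and 286, 275 and 308 in deficient medium. They were 55.4, 50.3 and 52.9 in glucose-only and 52.3, 80.9 and 59.7 in glutamine-only medium. Deficient libraries stood far above the rest, and the full libraries lay below all others. UAP1 rose by 2.71 ± 0.14 in deficient against full medium (6.54-fold, adjusted p = 1.2e-15), the largest change of the 9 in that comparison. The change in glutamine-only medium was 0.53 ± 0.14 (adjusted p = 0.00596), a call lost with equal totals (0.0719) and without glutamine-only replicate B (0.0814, range 0.00182 to 0.0814), and in glucose-only medium it was 0.28 (adjusted p = 0.159). Against deficient medium UAP1 was lower by a log2 change of -2.43 ± 0.14 in glucose-only (adjusted p = 2.92e-14) and -2.18 ± 0.14 in glutamine-only medium (adjusted p = 4.21e-13).

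Per kilobase of exon UAP1, the last step, was furthest above GFPT1 in deficient medium, and it was above GFPT1 in full medium as well. GFPT2, the other enzyme of the first step, was above UAP1 per kilobase in full medium. The order of UAP1 and GFPT1 there depends on the lengths taken. Before division by length the normalized counts there were 43.5 ± 3.60 for UAP1 and 71.1 ± 13.3 for GFPT1. The ratio of UAP1 to GFPT1 was 1.61 ± 0.214 in full, 0.684 ± 0.0543 in glucose-only, 0.555 ± 0.145 in glutamine-only and 4.70 ± 0.496 in deficient medium. None of the 3 overlapped with full medium, each with a two-sided exact permutation p of 0.1, the smallest possible. UAP1, at 84.4 ± 4.88 per kilobase, was the most abundant of the 9 in deficient medium. In full medium that place was held by OGA (21.1 ± 1.41), followed by GFPT2 (15.02 ± 0.673), OGT (13.4 ± 0.795) and UAP1 (12.7 ± 1.05). OGT and UAP1 did not differ there beyond their spread. Below them came GFPT1 (8.02 ± 1.498), GNE (7.57 ± 0.802), PGM3 (5.53 ± 0.573), GNPNAT1 (5.12 ± 0.865) and NAGK (2.46 ± 0.192), with GFPT1 and GNE, and PGM3 and GNPNAT1, within each other's spread.

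**Figure D2:**
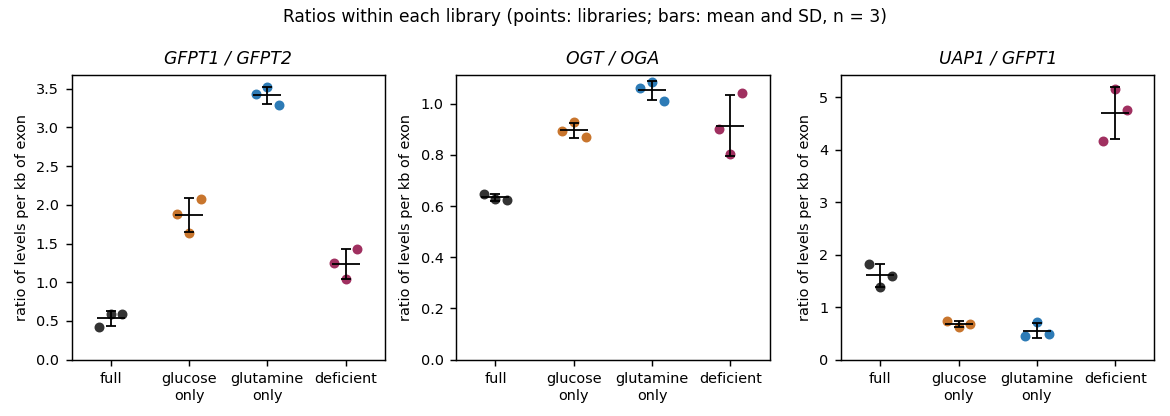
Ratios of levels per kilobase of exon within each library (points) by medium, with black bars for the mean and SD of 3 libraries, on a linear y axis from 0 with no unit. GFPT1 to GFPT2 is 0.424 to 0.590 in full and 3.29 to 3.52 in glutamine-only medium, OGT to OGA is lowest in full medium, and UAP1 to GFPT1 is 4.17 to 5.16 in deficient medium.

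NAGK, the N-acetylglucosamine kinase of the salvage route, was the least abundant of the 9 per kilobase of exon in each medium, a rank that depends on the exon union taken (8.894 kb). Its normalized count was 20.7 to 23.9 in full, 21.2 to 27.7 in glucose-only, 17.3 to 24.4 in glutamine-only and 9.32 to 16.9 in deficient medium. Deficient libraries lay below all others and the other 3 media overlapped. The change in deficient against full medium was -0.65 ± 0.26 (adjusted p = 0.0353). It was lost in 8 of 23 alternatives, among them each fit without 1 full replicate (A 0.0651, B 0.0566, C 0.102) and the fit without deficient replicate C (0.219), range 0.00126 to 0.219. Glucose-only against deficient medium gave 0.79 ± 0.26 (adjusted p = 0.0142), lost without glucose-only replicate A (0.0593), without deficient replicate C (0.11) and with DESeq2 (0.0521), range 0.00374 to 0.11.

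GNE, which starts sialic acid synthesis from UDP-GlcNAc, measured 44.3, 49.8 and 40.4 in full medium and 32.5, 55.9 and 44.7 in glutamine-only medium. Without added glutamine it measured 27.7, 29.3 and 37.6 with glucose and 26.0, 31.4 and 23.3 without. The full libraries were above all 6 libraries without glutamine, and the glutamine-only libraries spread across most of that range. Averaged over the media with and without glucose, GNE was higher with glutamine by 0.59 ± 0.14 (adjusted p = 0.00154). It fell by 0.72 ± 0.20 in deficient against full medium (adjusted p = 0.00358). In glucose-only against full medium the value was -0.50 ± 0.20 (adjusted p = 0.0706), called with equal totals (0.00976) and without glucose-only replicate C (0.0457), range 0.00976 to 0.243. Glutamine-only against deficient medium gave 0.68 ± 0.20 (adjusted p = 0.00787), lost without glutamine-only replicate B (0.0785, range 0.000336 to 0.0785).

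OGT, the O-GlcNAc transferase encoded on the X chromosome (71533104 to 71575892), was higher with either nutrient alone than with both or neither. Its counts were 128, 140.1 and 126 in full and 108, 91.8 and 113 in deficient medium. In glucose-only medium they were 235, 237 and 173, and in glutamine-only medium 181, 166 and 187. Every single-nutrient library was above every full library, and every deficient library was below. OGT rose against full medium by 0.70 ± 0.12 in glucose-only (1.62-fold, adjusted p = 8.46e-05). In glutamine-only medium the change was 0.44 ± 0.12 (1.36-fold, adjusted p = 0.00841), a call lost with equal totals (0.128) and with a constant prior variance (0.0699), range 0.00233 to 0.128. In deficient medium it was -0.33 ± 0.12 (adjusted p = 0.0221), lost without full replicate B (0.0877), without deficient replicate B (0.116), without a filter, with a constant prior variance and with DESeq2 (0.107), range 6.13e-05 to 0.116. Against deficient medium OGT was higher by 1.03 ± 0.12 in glucose-only (adjusted p = 7.45e-08) and by 0.77 ± 0.12 in glutamine-only medium (adjusted p = 8.78e-06).

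OGA, the O-GlcNAcase on chromosome 10 (101784450 to 101818444, minus strand), was lowest in deficient medium. It measured 145, 164 and 149 in full and 88.5, 84.5 and 80.0 in deficient medium. Glucose-only libraries held 194, 189 and 147, and glutamine-only libraries 126, 113 and 137. Deficient libraries lay below all others, glutamine-only libraries lay below full libraries, and the full and glucose-only libraries overlapped. OGA fell by 0.85 ± 0.12 in deficient against full medium (0.555-fold, adjusted p = 7.89e-07). The changes in glucose-only (0.20, adjusted p = 0.245) and glutamine-only medium (-0.29, adjusted p = 0.083) did not pass, though the second did with equal totals (0.0446, range 0.0446 to 0.304). OGA was higher in glucose-only than in glutamine-only medium by 0.48 ± 0.12 (adjusted p = 0.00578), lost with equal totals (0.084) and with a constant prior variance (0.0601), range 0.00129 to 0.084. It was higher than in deficient medium in both glucose-only (1.05 ± 0.12, adjusted p = 4.15e-08) and glutamine-only medium (0.56 ± 0.12, adjusted p = 0.000399).

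The writer and eraser of O-GlcNAc shifted in relation to each other in all 3 depleted media. Per kilobase of exon, OGT to OGA was 0.648, 0.629 and 0.625 in the full libraries. It was 0.895, 0.927 and 0.869 in glucose-only, 1.06, 1.09 and 1.01 in glutamine-only, and 0.902, 0.802 and 1.04 in deficient libraries. Every full library was below every other library. In glucose-only medium this came with more OGT. In glutamine-only medium the log2 change against full was 0.44 for OGT and -0.29 for OGA, of which that of OGA did not pass. In deficient medium both were lower, OGA by 0.85 and OGT by 0.33. The OGT calls in glutamine-only and deficient medium were lost in 2 and 5 of 24 alternatives. Each medium against full gave a two-sided exact permutation p of 0.1, the smallest 3 against 3 libraries allow.

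**Figure D3:**
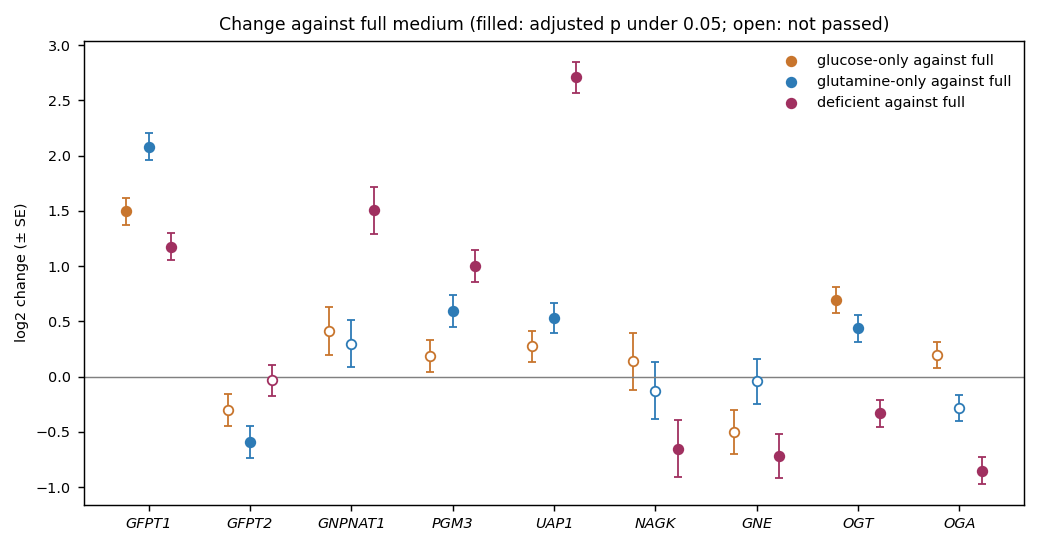
Log2 changes against full medium (y axis; points are limma estimates, bars are SE) of the 9 genes (x axis) in glucose-only, glutamine-only and deficient medium, with filled points for an adjusted p under 0.05. UAP1 reaches 2.71 in deficient medium and GFPT1 2.08 in glutamine-only medium.

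With 1 nutrient present, fewer of the 9 differed from full medium. In glucose-only medium 2 rose (GFPT1 and OGT), none fell and 7 did not pass, where 9.44% of all tested genes rose and 13.5% fell. The median change of the 9 was 0.20 beside -0.03 for all genes. In glutamine-only medium 4 rose (GFPT1, PGM3, UAP1 and OGT), 1 fell (GFPT2) and 4 did not pass, where 10.8% of all genes rose and 11.6% fell. Their median was 0.30 beside -0.01 for all genes. GFPT1 and OGT were the 2 genes called higher in both.

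Set against deficient medium, glucose alone went with 4 genes higher (GFPT1, NAGK, OGT and OGA), 3 lower (GNPNAT1, PGM3 and UAP1) and 2 that did not pass. The background was 20.1% higher and 23.2% lower. Glutamine alone went with 4 higher (GFPT1, GNE, OGT and OGA), 4 lower (GFPT2, GNPNAT1, PGM3 and UAP1) and NAGK not passing (0.52, adjusted p = 0.106), against 19.9% higher and 21.6% lower among all genes. Either nutrient thus went with lower GNPNAT1, PGM3 and UAP1 and higher GFPT1, OGT and OGA than in deficient medium, 2 comparisons that share the deficient libraries. Of these calls, that of GFPT1 with glucose and that of PGM3 with glutamine were each lost in 7 of 24 alternatives. Glucose-only against glutamine-only medium gave 1 higher (OGA), 1 lower (GFPT1) and 7 that did not pass, where 5.05% of all genes were higher and 8.26% lower.

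Averaged over the media with and without glutamine, glucose went with 3 higher genes (NAGK, OGT and OGA) and 4 lower (GFPT1, GNPNAT1, PGM3 and UAP1), beside 18.4% and 20.5% of all genes. The largest average glucose effect was that of UAP1 (-1.48 ± 0.10, adjusted p = 7.31e-13). For OGA it was 0.67 ± 0.08 (adjusted p = 2.28e-07), and for PGM3 -0.70 ± 0.10 (adjusted p = 2.55e-06). For OGT it was 0.29 ± 0.09 (adjusted p = 0.00688), lost with a constant prior variance (0.0536, range 0.000724 to 0.0536). The average for NAGK, 0.46 ± 0.18 with an adjusted p of 0.0456, was lost in 11 of 22 alternatives, range 0.0105 to 0.143. These included the fits without full replicate A (0.0671), B (0.0593) or C (0.0911), glucose-only replicate A (0.0983) or B (0.0684), glutamine-only replicate B (0.0992) or C (0.0839) and deficient replicate C (0.143). Averaged over the media with and without glucose, glutamine went with 1 higher gene (GNE) and 4 lower (GFPT1, GNPNAT1, PGM3 and UAP1), beside 19.5% and 18.6% of all genes. UAP1 gave -1.23 ± 0.10 (adjusted p = 5.65e-11) and GNPNAT1 -0.81 ± 0.15 (adjusted p = 9.7e-05). The glutamine averages of GFPT1 (-0.29 ± 0.09, adjusted p = 0.00822) and PGM3 (-0.30 ± 0.10, adjusted p = 0.0233) were lost with equal totals, at 0.758 and 0.777, the upper ends of ranges that begin at 0.00232 and 0.0144. For PGM3 the call was also lost without full replicate C (0.0672), glucose-only replicate B (0.0518), glutamine-only replicate A (0.0628) or deficient replicate C (0.0642).

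For most of the 9 an average hides a dependence of one nutrient's effect on the other. The interaction, the glucose effect in the presence of glutamine minus the glucose effect in its absence, passed for 5 genes: higher for GFPT2 and UAP1 and lower for GFPT1, OGT and OGA, where 15.5% and 11% of all genes passed. Adding glucose went with a GFPT1 change of 0.32 when glutamine was absent and -2.08 when it was present, an interaction of -2.40 ± 0.17 (adjusted p = 2.73e-11). For UAP1 the glucose effect was -2.43 without glutamine and -0.53 with it, an interaction of 1.90 ± 0.20 (adjusted p = 2.15e-08). OGT went from 1.03 without glutamine to -0.44 with it (-1.47 ± 0.17, adjusted p = 1.71e-07), a change of sign like that of GFPT1. On its own, the call for the GFPT1 value of 0.32 was lost in 7 of 24 alternatives, and that for the OGT value of -0.44 in 2 of 24. For OGA the interaction was -0.76 ± 0.17 (adjusted p = 0.00115) and for GFPT2 0.86 ± 0.20 (adjusted p = 0.00217). The interaction of GNPNAT1 was 0.79 ± 0.30 (adjusted p = 0.0507), called in 4 of 22 alternatives: with a pseudocount of 8 (0.0296) and without full replicate C (0.0267), glucose-only replicate A (0.0424) or glutamine-only replicate C (0.019), range 0.019 to 0.197. PGM3 (0.22, adjusted p = 0.458), NAGK (-0.66, 0.183) and GNE (-0.18, 0.691) did not pass.

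**Figure D4:**
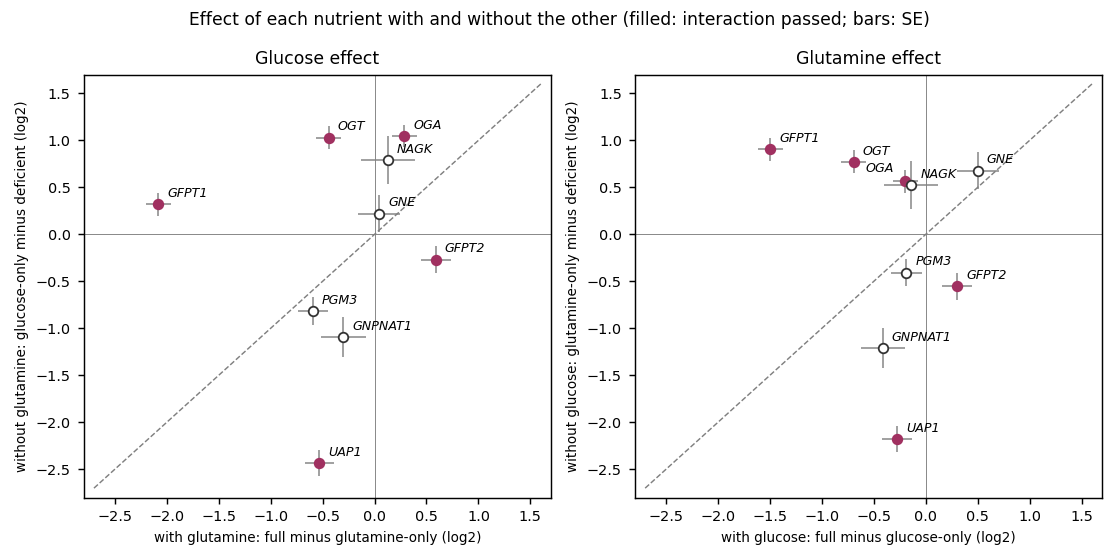
Effect of 1 nutrient without the other (y axis) against its effect with the other present (x axis), both as log2 changes with SE bars, for glucose (left) and glutamine (right); the dashed diagonal marks equal effects and filled points passed the interaction test. GFPT1 and OGT lie above 0 on the y axis and below 0 on the x axis in both panels, and UAP1 is lowest on the y axis, at -2.43 and -2.18.

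Across the 12 libraries the log2 levels of the 3 middle and late steps ran together: Pearson r was 0.914 for GNPNAT1 and UAP1, 0.879 for PGM3 and UAP1 and 0.869 for GNPNAT1 and PGM3. OGA ran against UAP1 (-0.895) and with NAGK (0.841) and OGT (0.774), and GFPT1 with UAP1 gave 0.162. These values describe 12 libraries in 4 media, which share the media and their composition, and carry no test. Among 2487 tested protein-coding genes with a mean of at least 50, the profile most like GFPT1 was SHMT2, a mitochondrial enzyme of serine and glycine metabolism (r = 0.971), with 91.2 ± 14.2 in full, 201 ± 6.03 in glucose-only, 253 ± 3.68 in glutamine-only and 155 ± 23.8 in deficient medium. TCEA1 (0.959), the cystine transporter gene SLC7A11 (0.956), the glutamine transporter gene SLC38A1 (0.950) and the glycyl-tRNA synthetase GARS1 (0.943) followed. For UAP1 they were TOP1 (0.994), ANKRD1 (0.986) and DKK1 (0.984), and TOP1, a DNA topoisomerase, measured 151 ± 14.1 in full and 462 ± 14.02 in deficient medium. For OGA they were SMAD3 (0.975), SRSF10 (0.962) and ANTXR2 (0.935), and ITPRIPL2 (0.889) and SRSF1 (0.884) were among the nearest to OGT. PTK2 (0.946), KIF1B (0.917) and UBE2N (0.880) were the nearest to GFPT2. DCAF13 (0.974), NR1D2 (0.958) and RASAL2 (0.957) were nearest to GNPNAT1, and FNIP1 (0.971), RPL5 (0.969) and RPLP0 (0.966) to PGM3. NAGK had NUMA1 (0.926), GOLM2 (0.877) and SMAD3 (0.872), and GNE had KDELR1 (0.904), LMO7 (0.881) and RBBP4 (0.872).

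Of the genes that feed the pathway, HK2, a hexokinase, rose in deficient medium by 1.16 ± 0.17 (adjusted p = 1.62e-06) and glutamine synthetase GLUL by 0.96 ± 0.14 (adjusted p = 2.04e-06). GPI, which makes fructose 6-phosphate from glucose 6-phosphate, fell there by 1.44 ± 0.15 (adjusted p = 4.3e-09), and the hexokinase HK1 gave -0.17 ± 0.14 (adjusted p = 0.318), called lower with equal totals (adjusted p = 0.0025). In glucose-only medium HK1, HK2, GPI and GLUL all fell, with HK2 at -0.92 ± 0.17 (adjusted p = 0.000173) and GLUL at -0.71 ± 0.14 (adjusted p = 0.000436). In glutamine-only medium HK1 fell by 0.68 ± 0.14 (adjusted p = 0.00053), GPI gave -0.56 ± 0.15 (adjusted p = 0.00674), lost without glutamine-only replicate C (0.0557), and HK2 (-0.20) and GLUL (0.00) did not pass.

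Of 8 listed genes of amino sugar salvage and breakdown, 4 were tested, and 3 rose and 1 fell in deficient medium. For this list and the next, the shares over all tested genes in that comparison were 26.3% higher and 25.5% lower. GNPDA1, a glucosamine-6-phosphate deaminase, went from 21.6 ± 1.48 in full to 40.3 ± 1.72 in glucose-only, 48.4 ± 5.18 in glutamine-only and 112 ± 8.13 in deficient medium. It rose by 2.32 ± 0.15 in deficient medium (adjusted p = 3.15e-13), by 1.12 ± 0.15 in glutamine-only and by 0.87 ± 0.15 in glucose-only medium, an order like that of UAP1. Past GNE in the sialic acid branch, 7 of 8 genes were tested, and 1 rose and 3 fell in deficient medium: NANS, the sialic acid phosphate synthase, rose by 1.24 ± 0.19 (adjusted p = 2.37e-06), while CMAS, which activates sialic acid, fell by 1.601 ± 0.24 (adjusted p = 3.05e-06) and the sialyltransferase ST6GAL1 by 1.11 ± 0.15 (adjusted p = 4.06e-07). ST3GAL4 was the other that fell.

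Of 9 genes that spend or carry UDP-GlcNAc in N-glycan assembly 5 were tested, and none rose and 2 fell in deficient medium: the branching enzyme MGAT5 by 1.40 ± 0.27 (adjusted p = 8.04e-05) and ALG13 by 0.72 ± 0.17 (adjusted p = 0.00111). In glutamine-only medium 3 of those 5 rose, ALG13 with an adjusted p that rounds to 0.05, and 1 fell, where 10.8% of all tested genes rose and 11.6% fell. In glucose-only medium 1 fell, where 9.44% of all tested genes rose and 13.5% fell. Of 12 other listed genes, most of them users of UDP-GlcNAc, 11 were tested, with 3 higher, 2 lower and 6 not passing in deficient medium, where 26.3% of all tested genes rose and 25.5% fell. The heparan sulfate polymerase EXT1 rose by 1.21 ± 0.10 (adjusted p = 9.61e-11) and POMGNT1, of O-mannosyl glycans, fell by 1.10 ± 0.23 (adjusted p = 0.000254). B3GNT2 gave 1.23 ± 0.38 (adjusted p = 0.00905), lost with equal totals (0.0652) and without full replicate B (0.0509) or deficient replicate A (0.0524).

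Among stress programs that are known to reach hexosamine genes, the 14 unfolded protein response genes of the endoplasmic reticulum all rose in both glucose-free media, with a median of 1.63 in deficient and 2.08 in glutamine-only medium. In glucose-only medium 4 of them rose, 4 fell and 6 did not pass (median 0.02). HSPA5, the chaperone BiP, measured 256 ± 15.3 in full, 309 ± 21.1 in glucose-only, 1274 ± 31.6 in glutamine-only and 1599 ± 60.4 in deficient medium. XBP1, the transcription factor of that response, measured 70.1 ± 8.05, 111 ± 19.8, 131 ± 2.77 and 299.7 ± 17.5 in the same order. Of the 9 enzymes, PGM3 and UAP1 were called higher in both glucose-free media and not in glucose-only medium, but glucose-only against glutamine-only medium did not pass for either (PGM3 -0.41, adjusted p = 0.0624; UAP1 -0.25, adjusted p = 0.255). Of 14 ATF4 and amino acid response genes 12 were tested: 9 rose and 2 fell in deficient, 9 rose and none fell in glucose-only and 10 rose and none fell in glutamine-only medium, with medians of 1.28, 1.42 and 1.53. Over all tested genes, 26.3% rose and 25.5% fell in deficient, 9.44% and 13.5% in glucose-only and 10.8% and 11.6% in glutamine-only medium. TRIB3, a target of ATF4, went from 13.5 ± 3.87 in full to 146 ± 5.32, 141 ± 8.19 and 213 ± 17.8 in glucose-only, glutamine-only and deficient medium. ATF4 itself rose by 0.65 ± 0.11, 0.80 ± 0.11 and 0.75 ± 0.11 in glucose-only, glutamine-only and deficient medium (adjusted p = 6.16e-05, 2.72e-06 and 1.8e-06). ASNS and SESN2 were too low to be tested. Of 4 genes listed around the glucose sensor MondoA 3 were tested: MLXIP, which encodes MondoA, its partner MLX, and the target gene TXNIP. In deficient medium MLX gave 0.31 ± 0.24 (adjusted p = 0.297) and MLXIP 0.56 ± 0.30 (adjusted p = 0.125), the latter called without full replicate C (0.0481) or deficient replicate B (0.0416), and neither passed in the other media. TXNIP measured 123 ± 9.24 in full and 185 ± 10.5 in glucose-only but 9.36 ± 2.75 in glutamine-only and 15.8 ± 1.08 in deficient medium, falling by 3.61 ± 0.17 and 2.89 ± 0.17 in the last 2 (adjusted p = 1.57e-15 and 3.47e-14).

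**Figure D5:**
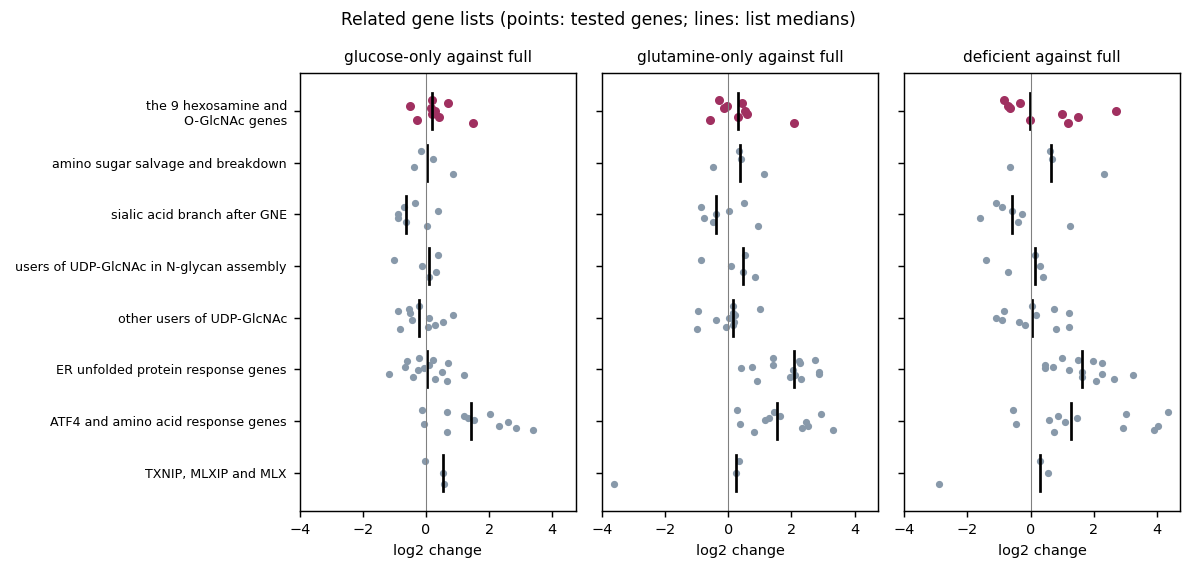
Log2 change against full medium (x axis) of each tested gene (points) of the 9 enzymes and of 7 related lists (rows), with a vertical line at the median of each, in 3 panels for glucose-only, glutamine-only and deficient medium. The unfolded protein response list is centred at 1.63 in deficient, 2.08 in glutamine-only and 0.02 in glucose-only medium, and the ATF4 list is above 1 in all 3.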

How the data were processed

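Total RNA of 12 MDA-MB-231 libraries, 3 in each of 4 media, was ribosome-depleted and sequenced. Per the submitters' processing notes, FastQC, HISAT2, Subread and DESeq2 were used with the GRCh38.p14 build. The deposited table holds size-factor normalized read counts per gene, a linear signal whose values came out as whole multiples of what 1 read is worth in each library (100% within 0.01 reads), so whole reads were recovered from it. No value column belonged to another sample (0 such columns).

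Values were tested as log2(normalized count + 1) with limma 3.58.1 (limma-trend, R 4.3.3), 1 mean per medium over all 12 libraries, on 9270 genes with at least 10 in at least 3 libraries, with Benjamini-Hochberg adjustment over them and a threshold of 0.05. A fold on this scale understates the change of low genes. The count tests of edgeR 4.0.16 and DESeq2 1.42.0 on the recovered reads were alternatives, as were other pseudocounts (0.5 and 8), filters, scalings, prior variances, a replicate block and leaving out each library. A scaling on nuclear protein-coding genes was added after seeing the data. The fit was tested on simulated reads in which a small share of the genes changed, in deficient against full medium only. That does not cover the other comparisons, the interaction or changes as wide as those in these data. Levels per kilobase used GENCODE 29 exon unions, and promoter windows came from RefSeq (GRCh38.p14). An exon union pools all annotated transcripts of a gene and can be longer than its message, so ranks between genes depend on it. Ratios, which were not among the planned tests, were compared with two-sided exact permutation tests.

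Named were all 9 enzymes, the 3 genes most like each (5 for GFPT1) by Pearson r of log2 levels, up to 3 genes of each list with the largest change between deficient and full medium, the supply list, and TXNIP, XBP1, HSPA5, ATF4 and ASNS. Some results that this rule names are not reported here. A few others (SESN2 and ST3GAL4) complete a count and were named after their values were seen. The 9 enzymes and 8 lists were chosen with earlier results of these data known. Depth was 875033 to 1473587 reads per library, so counting error is largest, relative to the level, for low genes.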

Additional observations from a re-analysis of the deposited data

Results flagged for a closer look

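For 5 of the 9 enzymes the effect of one nutrient differed according to whether the other was present, by limma's test of the interaction adjusted over 9270 genes. Among all tested genes, 15.5% passed that test as higher and 11% as lower. The log2 interaction of GFPT1 was -2.40, with a glutamine effect of -1.49 in the presence of glucose and 0.91 in its absence. UAP1 had 1.90, with glutamine effects of -0.28 and -2.18. OGT had -1.47, with glutamine effects of -0.70 and 0.77. GFPT2 gave 0.86, with 0.30 and -0.55, and OGA gave -0.76, with -0.20 and 0.56. The sign thus differed for GFPT1, OGT, GFPT2 and OGA, but for GFPT2 and OGA the effect with glucose did not pass on its own (adjusted p = 0.133 and 0.245). No test for a single outlying library was made on the levels of these genes, since each medium has 3 libraries.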

How the results depend on the processing

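Over 1890 recomputed values of the 9 enzymes in 9 comparisons, 60 lost a call, 16 gained one and 0 reversed while called. The other 1814 stayed on their side of the threshold, 13 of them with a change of sign in a value called under neither setting. Calls were alike for all 81 values with edgeR, with a pseudocount of 0.5 and with scaling on nuclear protein-coding genes, while DESeq2 lost 7, equal totals lost 8 and gained 8, and leaving out libraries lost 29 and gained 6 of 972. The letters A, B and C did not pair the libraries (0 of 18 same-letter pairs had r over 0.1, range -0.03 to 0.07), and with the replicate block the count in deficient against full medium was again 8, with all 81 calls alike. With equal totals the number called went from 2 to 4 in glucose-only and from 5 to 3 in glutamine-only against full medium, and from 2 to 1 in glucose-only against glutamine-only medium, where a constant prior variance also gave 1. With a mean of at least 50, which leaves 6 of the 9 tested, the number was 5 in place of 8 in deficient against full medium and 3 in place of 5 for the average glutamine effect. PTK2, a gene most like GFPT2, reversed from 0.06 (adjusted p = 0.62) to -0.34 (adjusted p = 0.0333) in deficient against full medium with equal totals. The cause was not tested. Of 464 recomputed likeness values 1 moved by at least 0.1 (NAGK with GOLM2, 0.714 without deficient replicate C). Depth limits what can be called for NAGK, which had 38 to 80 reads per medium.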
